A study of Mus musculus with 2 samples.

Results

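Molecular chaperones are proteins that help other proteins to fold, and the 39 genes described here encode chaperones, their helpers and the heat shock factor Hsf1. They were taken as a fixed list of symbols and matched to array probes by the RefSeq accession of the probe. Of the 39 genes, 38 had a probe, 53 probes in all, and Hspa1b had none matched to it. All 38 were well above background on both arrays, out of 13843 genes measured there. They were divided by compartment into 25 cytosolic genes (24 measured), 3 mitochondrial genes and 11 genes of the endoplasmic reticulum (ER).

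Cytosolic chaperones work around HSP70 and HSP90 proteins, which use ATP to bind and release unfolded clients, with J-domain proteins that deliver clients to HSP70 and the ring-shaped chaperonin TRiC that folds actin and tubulin. HSF1 switches on many of these genes when unfolded proteins accumulate in the cytosol. The ER has a set of its own, with BiP, GRP94, lectin chaperones for glycoproteins and disulfide isomerases, which the unfolded protein response raises when secretory load exceeds folding capacity. Neutrophil precursors make large amounts of granule protein through the ER.

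The samples were bone marrow cells of C57BL/6 mice grown with cytokines to yield myeloid-derived suppressor cells, 1 culture per condition. One culture had GM-CSF at 40 ng/ml plus IL-6 at 40 ng/ml and the other had GM-CSF ONLY at 40 ng/ml, both in 5% fetal bovine serum for 4 days. GM-CSF drives growth of granulocytes and macrophages, and IL-6 is an inflammatory cytokine that signals through STAT3. Total RNA was read on 1 Agilent array per culture with the dye Cy3, so no difference below has a replicate check and none has a p-value. The cultures are mixed populations from whole marrow, and neither sorting nor the number of mice is given in the sources used here. In such bulk RNA, fewer cells of a type and less RNA per cell cannot be told apart.

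Signals were scaled so that both arrays had the same 75th percentile, 517.0 in the units printed here, and the log2 ratio is GM-CSF + IL-6 minus GM-CSF ONLY. The technical SD after a ± sign is the SD of the log2 ratio between repeated spots of probes printed several times, at the brightness of the gene. It was 0.04 for bright and 0.24 for the dimmest probes, and it covers spot error, not labelling or culture. Signals are not compared between genes, because each probe binds with its own strength. For the labelled cell type, 12 myeloid markers were read, all of which were well above background on both arrays. So were 13843 of the 20143 genes named and all 7 B cell markers, so detection alone cannot check the label. The log2 ratios of the 12 myeloid markers ran from -0.25 (Csf1r) to 0.20 (Cybb), with a median of 0.02. Of the 12 myeloid markers, 6 were higher with IL-6 and 6 lower. Their summed signals were 1512339 with IL-6 and 1467065 with GM-CSF ONLY, sums to which the brightest probes, S100a9 and S100a8, add most.

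In some promoter windows of the list, the letters match an element of either stress pathway. Windows that the values below refer to are shown first. Windows of 300 bases, 250 before and 50 after the annotated start, were taken from RefSeq on build GRCm38.p6 and matched 32 members by symbol, with 41 windows. Hspa8, Hsp90aa1, Hsp90ab1, Cct4, Hsf1, Hspa9 and Hyou1 were not matched to a window. The heat shock element bound by HSF1 was searched as GAANNTTC or TTCNNGAA, both of which read the same on either strand. Its longer form of 3 units, GAANNTTCNNGAA or TTCNNGAANNTTC, contains the shorter. The ER stress response element was searched as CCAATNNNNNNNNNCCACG or its reverse complement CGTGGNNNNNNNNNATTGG. Capitals in the windows below mark these matches, and each window reads 5′ to 3′ on the strand of its gene.

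The first pair is shown because Hspa1a and Hspa1b, the stress-inducible HSP70 genes, have windows that differ at 4 of 300 bases, each with 1 heat shock element starting 104 bases before the start.
Hspa1a, chr17:34972107-34972406, strand minus: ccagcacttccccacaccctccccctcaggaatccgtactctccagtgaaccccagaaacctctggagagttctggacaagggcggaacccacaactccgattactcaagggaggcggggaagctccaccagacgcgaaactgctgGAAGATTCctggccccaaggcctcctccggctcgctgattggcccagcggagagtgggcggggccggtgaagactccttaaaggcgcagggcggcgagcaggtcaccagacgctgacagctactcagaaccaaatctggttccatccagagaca
Hspa1b, chr17:34959189-34959488, strand minus: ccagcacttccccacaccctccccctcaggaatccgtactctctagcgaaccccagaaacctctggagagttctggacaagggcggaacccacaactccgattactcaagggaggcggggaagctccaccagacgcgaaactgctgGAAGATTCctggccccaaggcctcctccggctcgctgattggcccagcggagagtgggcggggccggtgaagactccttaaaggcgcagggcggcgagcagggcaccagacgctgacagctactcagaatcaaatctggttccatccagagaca

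Hspb1, the small heat shock protein, is shown because it was the member with the largest log2 ratio in size, and its window has 2 elements.
Hspb1, chr5:135887669-135887968, strand plus: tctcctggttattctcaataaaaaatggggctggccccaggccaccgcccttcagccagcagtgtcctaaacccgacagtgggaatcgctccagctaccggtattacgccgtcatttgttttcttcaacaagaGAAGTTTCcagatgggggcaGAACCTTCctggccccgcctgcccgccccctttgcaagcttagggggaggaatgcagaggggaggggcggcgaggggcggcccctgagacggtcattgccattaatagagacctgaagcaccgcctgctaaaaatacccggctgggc

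Hspd1 and Hspe1 encode the mitochondrial chaperonin and its lid and are read in opposite directions from one stretch of chromosome 1. The Hspe1 window shares 285 bases with an Hspd1 window on the opposite strand, and both hold the same run of 3 overlapping elements.
Hspe1, chr1:55087898-55088197, strand plus: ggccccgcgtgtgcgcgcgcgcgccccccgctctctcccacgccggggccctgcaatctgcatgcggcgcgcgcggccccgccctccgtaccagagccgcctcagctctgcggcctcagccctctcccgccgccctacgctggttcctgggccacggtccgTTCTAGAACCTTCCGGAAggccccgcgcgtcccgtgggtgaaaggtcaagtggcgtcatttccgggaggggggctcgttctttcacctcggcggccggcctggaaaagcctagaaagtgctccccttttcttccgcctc

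The ER windows of Hspa5, Hsp90b1 and Calr are shown because they hold the ER stress response element, with 1 match each in Hspa5 and Calr and 2 in Hsp90b1.
Hspa5, chr2:34771840-34772139, strand plus: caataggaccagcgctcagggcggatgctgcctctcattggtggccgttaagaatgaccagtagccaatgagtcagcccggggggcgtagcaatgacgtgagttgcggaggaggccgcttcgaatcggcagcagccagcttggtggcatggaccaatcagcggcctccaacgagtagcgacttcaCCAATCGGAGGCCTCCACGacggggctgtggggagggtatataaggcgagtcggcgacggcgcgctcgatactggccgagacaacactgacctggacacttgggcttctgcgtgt
Hsp90b1, chr10:86705395-86705694, strand minus: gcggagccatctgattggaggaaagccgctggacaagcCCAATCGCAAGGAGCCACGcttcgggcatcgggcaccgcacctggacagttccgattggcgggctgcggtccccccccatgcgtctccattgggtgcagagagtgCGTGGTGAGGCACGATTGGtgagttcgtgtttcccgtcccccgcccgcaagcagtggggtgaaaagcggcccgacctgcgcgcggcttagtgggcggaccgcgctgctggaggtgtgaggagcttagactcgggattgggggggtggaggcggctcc
Calr, chr8:84846882-84847181, strand minus: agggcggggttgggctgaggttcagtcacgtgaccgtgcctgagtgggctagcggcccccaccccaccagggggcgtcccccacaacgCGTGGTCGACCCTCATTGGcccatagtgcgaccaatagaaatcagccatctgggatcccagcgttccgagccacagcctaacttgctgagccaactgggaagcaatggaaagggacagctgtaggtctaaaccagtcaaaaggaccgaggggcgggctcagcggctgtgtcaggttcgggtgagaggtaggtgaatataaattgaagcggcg

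A heat shock element in its shorter form was found in 15 of the 41 member windows (36.6%), against 15.1% of all 32851 windows of the same length. The form of 3 units was in 6 member windows (14.6%), those of Dnajb6, Hspd1, Hspe1 and Hsph1, against 0.603% of all windows. The ER stress response element was in 6 member windows (14.6%) against 0.119% of all windows. All 6 belonged to ER genes, namely Calr, Canx, Dnajc3, Hsp90b1, Hspa5 and Pdia6, and none of the 10 ER windows held a heat shock element. A match describes the letters of the window and not binding.

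The chaperone genes as a whole differed little between the cultures. Of the 38 measured, 20 were higher (52.6%) and 18 lower with IL-6, where 43.8% of all measured genes were higher and 56.2% lower. The median log2 ratio was 0.01 over the members and -0.02 over all genes measured. No member was 2-fold higher or lower, where 0.282% of all genes were 2-fold higher and 0.101% lower. At 1.2-fold, 0 members were higher (background 6.36%) and 1, Hspb1, was lower (background 5.97%). Most members are bright, and for the 8049 genes above the 75th percentile of signal these backgrounds were 1.89% and 2.42%.

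Most members lay close to 0, as did most genes. Within 1.1-fold lay 28 of the 38 members, against 63.7% of all genes measured. Among the 34 members brighter than the 75th percentile it was 27, against 73.9% of genes as bright. The SD of log2 ratios over these 34 was 0.10, and over all genes as bright it was 0.13. Log2 ratios more than 2 technical SDs from 0 were found for 8 members that were higher (background 11.3%) and for 2 that were lower (background 17.2%). The 8 were Hsp90aa1, Cct3, Hsf1, Stip1, Fkbp4, Hspd1, Pdia3 and Calr, and the 2 were Hspa4 and Dnajb1. All 10 were bright, and among genes as bright 13.7% were higher and 24.4% lower by this measure.

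**Figure D1:**
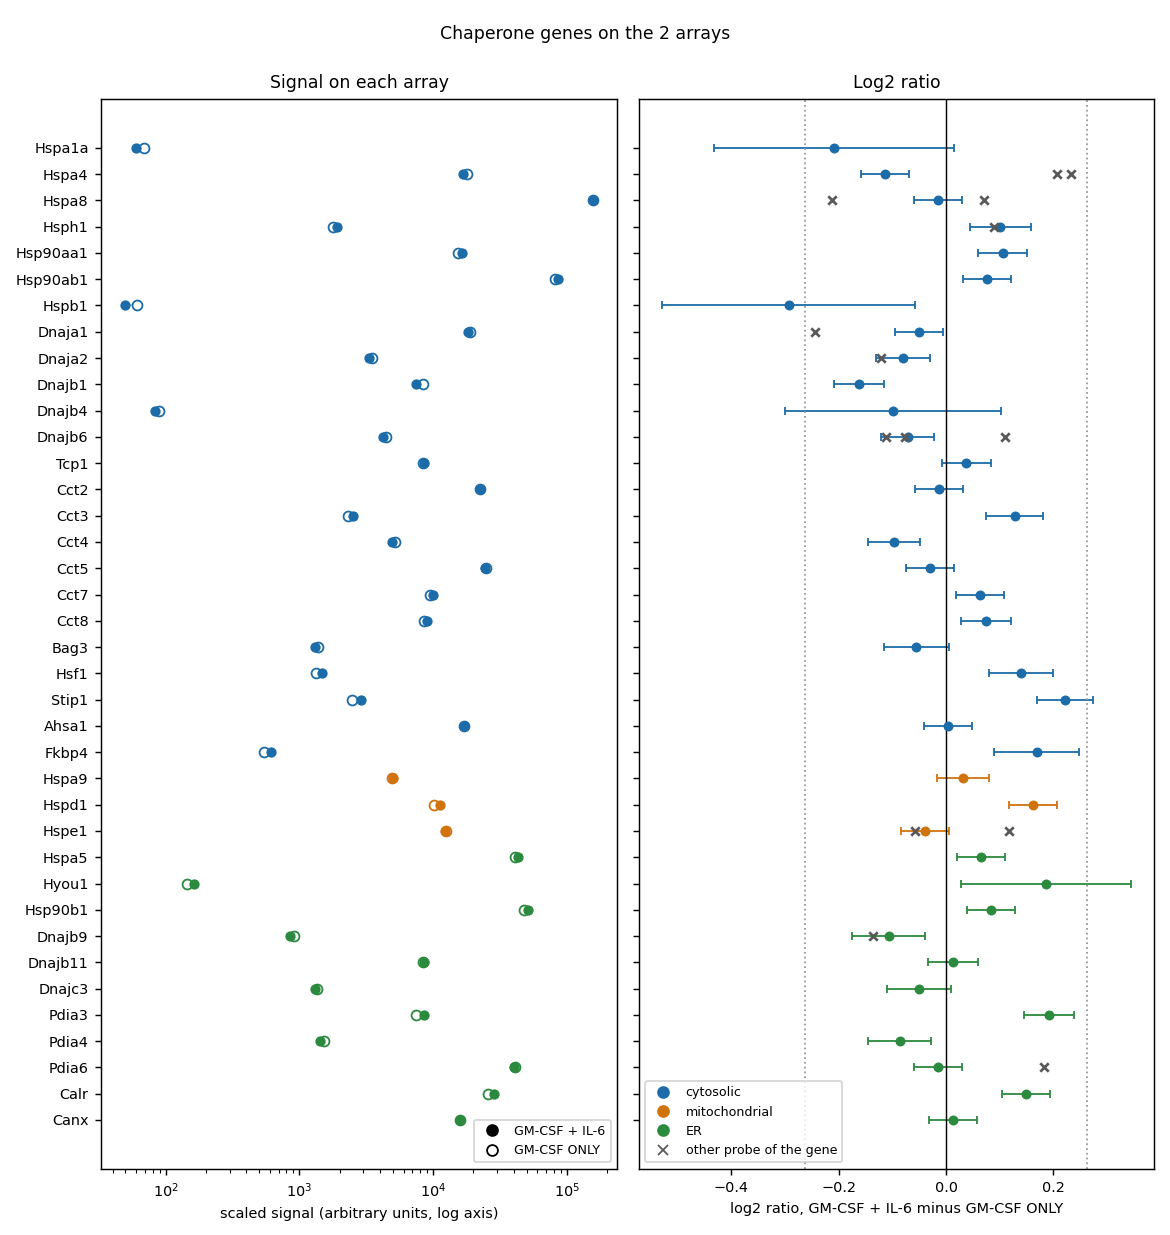
Signals of the 38 measured chaperone genes (left, log axis, filled for GM-CSF + IL-6 and open for GM-CSF ONLY) and their log2 ratios (right, with technical SD as bars, crosses for other probes of the gene and dotted lines at 1.2-fold). Hspb1 at -0.29 is the only gene whose point lies beyond a dotted line, and its bar is wide.

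**Figure D2:**
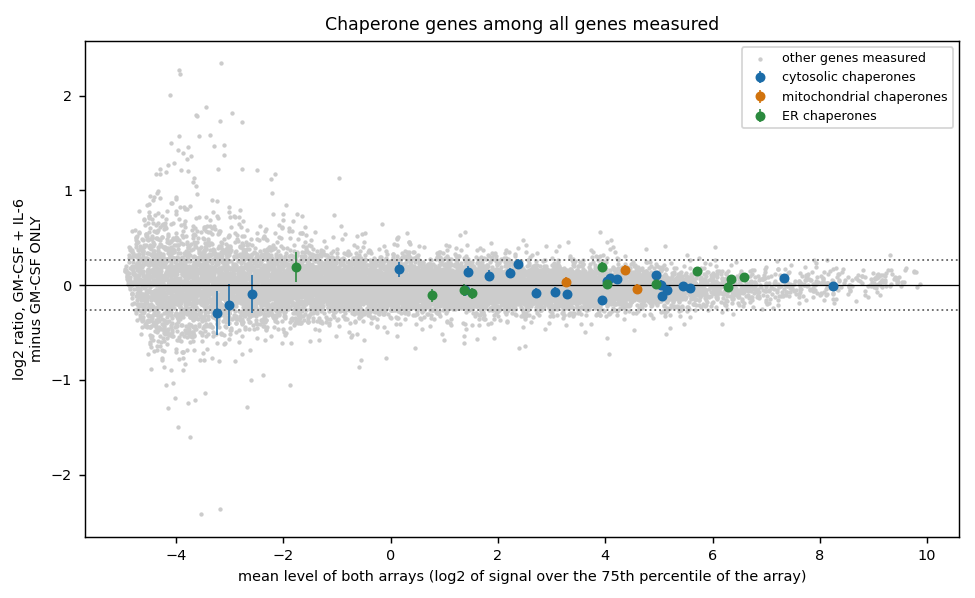
Log2 ratio against mean level of both arrays (log2 of signal over the 75th percentile of its array) for the 13843 genes measured, with the chaperone genes coloured by compartment, bars for technical SD and dotted lines at 1.2-fold. The 34 bright members lie between -0.16 and 0.22, inside the cloud of other genes.

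The cytosolic group had 11 genes higher and 13 lower with IL-6. Log2 ratios ran from -0.29 to 0.22 around a median of -0.01. Among its HSP70 genes, the stress-inducible Hspa1a was dim, with a signal of 59.8 with IL-6 and 69.2 with GM-CSF ONLY (log2 ratio -0.21 ± 0.22). The difference was smaller than its technical SD. Because Hspa1b is nearly the same gene, its transcripts may bind this probe too, and this was not tested. Hspa8, the HSP70 that is made at all times, had 156416 with IL-6 and 158042 with GM-CSF ONLY (log2 ratio -0.01 ± 0.04). Its other probes gave 0.07 and -0.21, so probes of this gene differed by more than their technical SD.

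Hspa4 and Hsph1 are HSP110 proteins, which exchange the nucleotide of HSP70. Hspa4 had 16586 with IL-6 and 17948 with GM-CSF ONLY (log2 ratio -0.11 ± 0.04). Its other 2 probes pointed the opposite way, with 0.21 ± 0.07 and 0.23 ± 0.09, so the direction of Hspa4 depends on the probe. Hsph1 had 1908 with IL-6 and 1779 with GM-CSF ONLY (log2 ratio 0.10 ± 0.06), with 0.09 on its other probe. Both Hsph1 probes were thus slightly higher with IL-6.

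Both cytosolic HSP90 genes were slightly higher with IL-6, under the reported processing and every alternative that kept them. Hsp90aa1, the inducible form, had 16539 with IL-6 and 15376 with GM-CSF ONLY (log2 ratio 0.11 ± 0.04, from 0.10 to 0.21 over settings). Its probe lies in the outermost column of the array. Hsp90ab1, the constitutive form, had 85561 with IL-6 and 81119 with GM-CSF ONLY (log2 ratio 0.08 ± 0.04). Among the HSP90 helpers, Stip1, which links HSP70 to HSP90, had 2890 with IL-6 and 2478 with GM-CSF ONLY (log2 ratio 0.22 ± 0.05), the highest ratio of the 38 genes. Fkbp4, a prolyl isomerase that binds HSP90 in steroid receptor complexes, had 611.7 with IL-6 and 544.1 with GM-CSF ONLY (log2 ratio 0.17 ± 0.08). Ahsa1, the activator of the HSP90 ATPase, had 17027 with IL-6 and 16975 with GM-CSF ONLY (log2 ratio 0.00 ± 0.04).

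Hsf1, the transcription factor of the heat shock response, had 1468 with IL-6 and 1332 with GM-CSF ONLY (log2 ratio 0.14 ± 0.06). Bag3, a co-chaperone that directs HSP70 clients to autophagy, had 1318 with IL-6 and 1369 with GM-CSF ONLY (log2 ratio -0.06 ± 0.06). Hspb1, a small chaperone that holds unfolded proteins, had 49.4 with IL-6 and 60.6 with GM-CSF ONLY (log2 ratio -0.29 ± 0.24). It is a dim probe, and with normexp background correction its log2 ratio was -0.08, inside 1.2-fold.

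All 5 cytosolic J-domain genes were lower with IL-6, where 56.2% of all genes measured were lower. Their log2 ratios ran from -0.16 to -0.05, except that Dnajb4 came to 0.08 with normexp. Of the 5, only Dnajb1 was more than 2 technical SDs from 0. Dnajb1, the stress-inducible partner of HSP70, had 7466 with IL-6 and 8358 with GM-CSF ONLY (log2 ratio -0.16 ± 0.05). Dnaja1 had 18129 with IL-6 and 18771 with GM-CSF ONLY (log2 ratio -0.05 ± 0.04), and its dim second probe gave -0.24 ± 0.24. Dnaja2 had 3299 with IL-6 and 3488 with GM-CSF ONLY (log2 ratio -0.08 ± 0.05), with -0.12 on its other probe. These are general co-chaperones that deliver clients to HSP70. Dnajb6, which suppresses protein aggregation, had 4223 with IL-6 and 4437 with GM-CSF ONLY (log2 ratio -0.07 ± 0.05). Of its 4 probes, 3 were lower and 1 was higher, at 0.11 ± 0.08. Dnajb4 was dim, at 83.4 with IL-6 and 89.3 with GM-CSF ONLY (log2 ratio -0.10 ± 0.20).

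The 7 genes of the TRiC ring on the list lay on both sides of 0, with 4 higher, 3 lower and a median log2 ratio of 0.04. The highest of the 7 was Cct3 (2534 with IL-6, 2319 with GM-CSF ONLY, log2 ratio 0.13 ± 0.05). The lowest of the 7 was Cct4 (4884 with IL-6, 5221 with GM-CSF ONLY, log2 ratio -0.10 ± 0.05). Cct8 at 0.07, Cct7 at 0.06 and Tcp1 at 0.04 were above 0, and Cct2 at -0.01 and Cct5 at -0.03 below, where Tcp1, Cct2 and Cct5 changed sign with normexp, and Cct2 also with quantile scaling and in the authors' matrix. These 7 ranged over 0.22 on the log2 scale. Cct6a, a ring subunit outside the list, was at 0.15 (1423 with IL-6, 1284 with GM-CSF ONLY), above all 7.

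The 3 mitochondrial genes had a median log2 ratio of 0.03. Hspd1, the chaperonin HSP60, had 11281 with IL-6 and 10080 with GM-CSF ONLY (log2 ratio 0.16 ± 0.04). Its lid Hspe1, which is read from the same stretch of DNA in the other direction, had 12220 with IL-6 and 12552 with GM-CSF ONLY (log2 ratio -0.04 ± 0.04). The other Hspe1 probes gave -0.06 and 0.12, on both sides of 0. Hspa9, the mitochondrial HSP70, had 5049 with IL-6 and 4942 with GM-CSF ONLY (log2 ratio 0.03 ± 0.05). The gap between Hspd1 and the Hspe1 probe used, 0.20 on the log2 scale, was close to the range over the Hspe1 probes, 0.17.

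The ER group had 7 genes higher and 4 lower with IL-6. Log2 ratios ran from -0.11 to 0.19 around a median of 0.01. The 3 genes of its HSP70 and HSP90 machines were higher, under the reported processing and every alternative that kept them. Hspa5, which encodes BiP, the HSP70 of the ER, had 42961 with IL-6 and 41064 with GM-CSF ONLY (log2 ratio 0.07 ± 0.04). Hsp90b1, which encodes GRP94 and folds Toll-like receptors and integrins, had 51016 with IL-6 and 48132 with GM-CSF ONLY (log2 ratio 0.08 ± 0.04), from a probe in the outermost column. Hyou1, the nucleotide exchange factor of BiP, was dim, at 162.8 with IL-6 and 143.1 with GM-CSF ONLY (log2 ratio 0.19 ± 0.16). Each of these ratios was below 2 technical SDs.

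The ER J-domain genes, which stimulate BiP, had log2 ratios from -0.11 to 0.01. Dnajb9 had 851.5 with IL-6 and 916.8 with GM-CSF ONLY (log2 ratio -0.11 ± 0.07), with -0.14 on its other probe. Dnajc3, an inhibitor of the stress kinase PERK, had a log2 ratio of -0.05 ± 0.06 and Dnajb11 of 0.01 ± 0.05, which came to -0.06 with normexp.

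The disulfide isomerases, which make and rearrange disulfide bonds, lay on both sides of 0. Pdia3, the partner of calreticulin and calnexin on glycoproteins, had 8489 with IL-6 and 7429 with GM-CSF ONLY (log2 ratio 0.19 ± 0.05), the highest of the ER genes. Pdia4 had 1434 with IL-6 and 1523 with GM-CSF ONLY (log2 ratio -0.09 ± 0.06). Pdia6 had 40171 with IL-6 and 40598 with GM-CSF ONLY (log2 ratio -0.02 ± 0.04), while its dimmer probe gave 0.18 ± 0.08. Of the lectin chaperones, Calr, which encodes calreticulin, had 28543 with IL-6 and 25739 with GM-CSF ONLY (log2 ratio 0.15 ± 0.04). Canx, which encodes the membrane-bound calnexin, had 15982 with IL-6 and 15830 with GM-CSF ONLY (log2 ratio 0.01 ± 0.04).

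Members with several probes show how far a single probe can be trusted at this scale. Of 9 genes with more than 1 probe well above background, 5 had probes on both sides of 0, namely Dnajb6, Hspa4, Hspa8, Hspe1 and Pdia6. The widest gap was in Hspa4, 0.35 on the log2 scale, which is larger than any member's own log2 ratio. No member probe lay in the 9 areas of the array crowded with differing probes.

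The ratios were then read by promoter window. A gene counted as having an element when any of its windows held it. Cct2, Cct5, Dnaja1, Dnajb4 and Hspd1, counted with a heat shock element, also had a window without it. Of 12 measured genes with a heat shock element in its shorter form, 3 were higher with IL-6 and the median log2 ratio was -0.04. Of 19 with a window and no heat shock element 12 were higher and the median was 0.01, and these 19 include all 10 ER genes with a window. Among cytosolic genes alone, 2 of 10 with the element were higher (median -0.05), and 6 of 9 without it (median 0.04), where 43.8% of all genes measured were higher. Of those with it, Hspa1a, Hspb1 and Dnajb4 were dim, and Dnajb4, Cct2 and Cct5 turned higher with normexp. Of those without it, Tcp1 turned lower with normexp and Hspa4 turned higher over the median of its probes. Hspa8, Hsp90aa1, Hsp90ab1, Cct4 and Hsf1 had no window and are in neither count. The 4 genes with the 3-unit form split evenly, Hspd1 at 0.16 and Hsph1 at 0.10 against Hspe1 at -0.04 and Dnajb6 at -0.07. Of the 6 ER genes with the ER stress response element 4 were higher, with a median of 0.04, while of the 4 ER genes with a window but without it 2 were higher, with a median of -0.04. No test was made of these counts and medians.

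Other genes of the folding network also had medians near 0. Among 35 measured heat shock and HSP90 cycle genes outside the list, 21 were higher and the median log2 ratio was 0.02. At 1.2-fold, 2 of these 35 were higher (5.71%, background 6.36%) and 0 lower (background 5.97%). The highest was Bag4 at 0.30 ± 0.12, which was below the 75th percentile of signal. Next were the ubiquitin ligase Stub1, which marks chaperone clients for destruction, at 0.27 (5925 with IL-6, 4926 with GM-CSF ONLY) and Hspbp1, an HSP70 exchange factor, at 0.25. Among the lowest were the heat shock factor Hsf2 at -0.24 and Hspb11 at -0.20. Partners of TRiC had 5 of 16 higher and a median of -0.05, among them Cct6a and the prefoldin subunit Pfdn5 at 0.15 each, and the tubulin cofactor Tbce at -0.18. Mitochondrial chaperones and proteases had 10 of 17 higher and a median of 0.00, from Hscb, a J-protein of iron-sulfur cluster assembly, at -0.24 to Clpb at 0.14.

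The sensors and factors of the unfolded protein response had 11 of 19 higher, with a median log2 ratio of 0.02. Their lowest were the stress kinase gene Eif2ak3, which encodes PERK, at -0.23 ± 0.06, Atf4, the transcription factor downstream of it, at -0.16 (52186 with IL-6, 58350 with GM-CSF ONLY) and Atf6 at -0.15. Their highest outside the lowest 25% by signal were Chac1 at 0.17, Sesn2 at 0.15 and Trib3 at 0.15. Among 45 other ER folding and degradation genes 18 were higher, with a median of -0.02, from Txndc5 at -0.30 to Derl3 at 0.28. Next highest after Derl3 were Pdia5 at 0.23 and Sdf2l1, a partner of BiP, at 0.19 (7118 with IL-6, 6232 with GM-CSF ONLY for Sdf2l1).

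**Figure D3:**
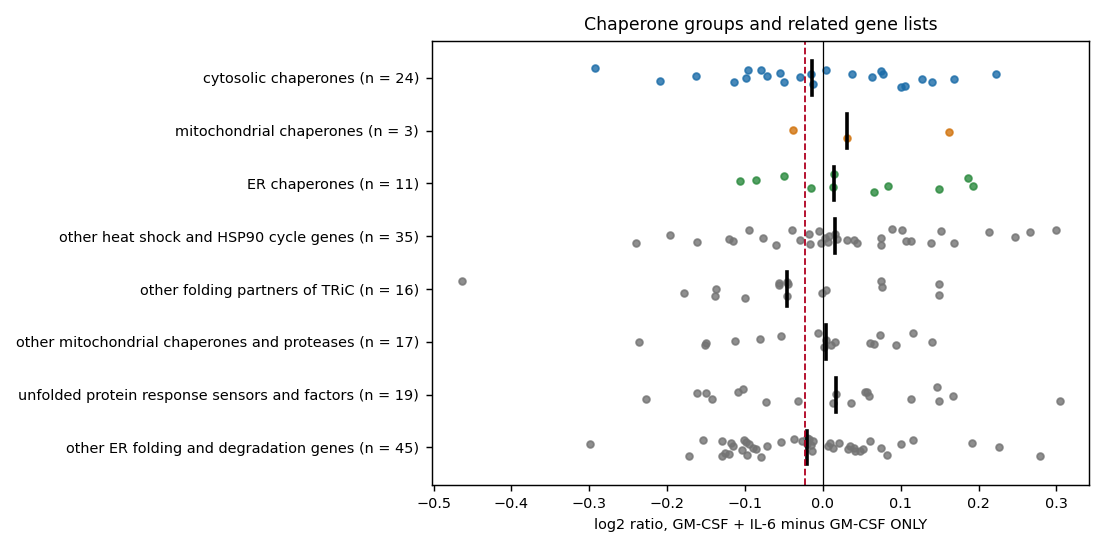
Log2 ratios of the 3 chaperone groups and of 5 related gene lists, with 1 point per measured gene, black bars for medians and a dashed line at the median of all genes measured, -0.02. Medians lie between -0.05 and 0.03.

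Markers of other cell types were read beside these values, where 43.8% of all genes measured were higher with IL-6 and 56.2% lower. Plasma cells are rich in ER chaperones, and of their 7 markers 6 were well above background, with Tnfrsf17 not. Of these 6, 5 were lower with IL-6 (median log2 ratio -0.18, summed signals 1765 with IL-6 and 1861 with GM-CSF ONLY), and 4 were lower with quantile scaling, with cyclic loess and in the authors' matrix. The median depended on dim probes. It was -0.07 with normexp, -0.10 without crowded tiles and outermost spots, and -0.06 without the lowest 25% of genes by level, which left 4 markers. At least 1.2-fold lower were Jchain at -0.56, Sdc1 at -0.27 and Prdm1 at -0.27, where 5.97% of all genes measured were. Derl3 at 0.28 was at least 1.2-fold higher, where 6.36% of all genes measured were. Jchain and Sdc1 were dim, in the lowest 25% by signal, and Mzb1, the brightest, was at -0.01. The markers Fkbp11 and Derl3 stand in the ER folding list too. Mast cell and basophil markers were higher with IL-6 in 7 of 7 genes (median log2 ratio 0.20, summed signals 44761 with IL-6 and 39562 with GM-CSF ONLY). The median ran from 0.15, where a gene took the median of its probes, to 0.22 with normexp. Of these markers, Fcer1a was at 0.02 ± 0.07, and Mcpt4 was dim, in the lowest 25% by signal. Megakaryocyte markers were lower in 4 of 6 (median -0.15), and eosinophil markers were higher in 3 of 6. B cell markers were lower in 6 of 7 (median -0.06) and T and NK cell markers in 4 of 5 measured (median -0.04). With normexp 4 of 7 B cell markers were lower, and with no filter on dim probes 4 of 8 T and NK cell markers were. Of the erythroid markers 3 were measured (median 0.25), all dim, in the lowest 25% by signal, with Alas2 and Klf1 among those not well above background. Of the stromal markers 6 were measured, 3 higher and 3 lower (median 0.11), with Col3a1 and Cxcl12 not well above background. The stromal marker Sparc was dim and at 1.48 (100.4 with IL-6, 35.98 with GM-CSF ONLY). Col1a2 was also dim, at 0.53, and Lepr, a bright marker, was at 0.24. The 3 lower stromal markers were Bgn at -0.15, Col1a1 at -0.13 and Pdgfrb at -0.02. The part of these cells in the chaperone values was not tested.

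**Figure D4:**
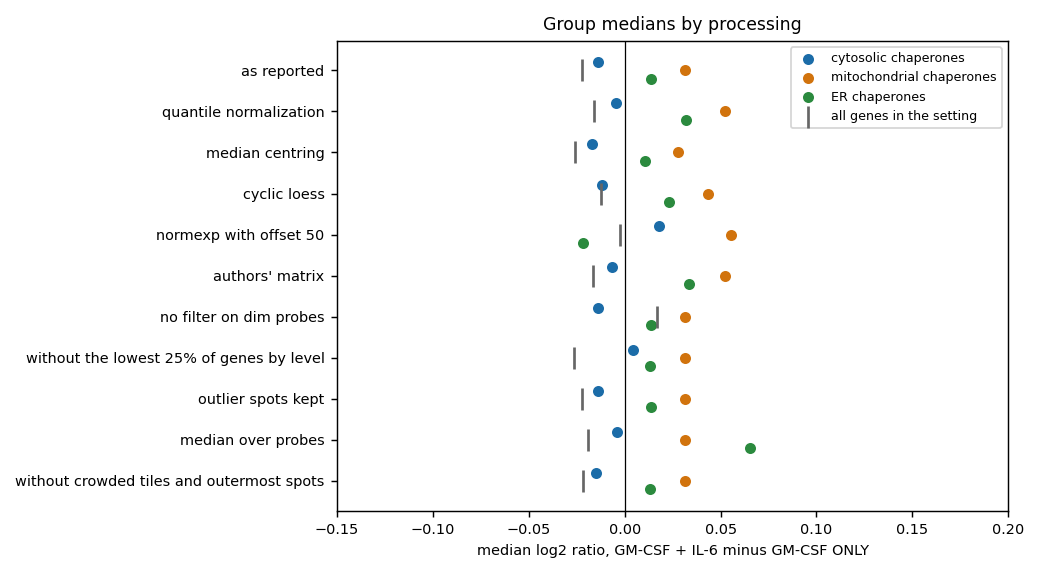
Median log2 ratio of the cytosolic, mitochondrial and ER chaperones under the reported processing and 10 alternatives, with grey marks for the median of all genes in the same setting. Medians stay between -0.02 and 0.07, and those of the cytosolic and ER groups lie on both sides of 0.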

How the data were processed

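Per the file headers, spots of each array were read by Agilent Feature Extraction 10.7.1.1, which subtracted background and corrected each intensity for trends over the slide. The deposited intensities keep the brightness of their own array. With IL-6 the 75th percentile was 486.2 and 57.9% of probes were well above background, and with GM-CSF ONLY these values were 549.7 and 59.1%. The authors' series matrix holds log2 values with a median of 5.10 in both columns, not centred per gene, and no source used here names the software that scaled them.

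Each array was divided by its 75th percentile over non-control spots and put on the log2 scale. Outlier spots were dropped and the remaining spots of each probe averaged. A probe counted as measured when at least 50% of its spots were well above background, and a gene took its brightest measured probe. RefSeq accessions without version were turned into symbols through a table of assembly GRCm38.p6, which named 20143 genes. The technical SD came from 266 probes with at least 5 usable spots. The number of arrays limits the precision, no spot was saturated, and both arrays were on 1 slide. The calculation was tested on simulated data.

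The members and lists were chosen with earlier results of these data known. All members are named, and of each other list the 3 highest and 3 lowest genes outside the lowest 25% by signal could be named. Alternatives changed the scaling (quantile, median, cyclic loess), the background correction (normexp, offset 50), the source (the authors' matrix), the filter on dim probes (none, or without the lowest 25%), the treatment of outlier spots, the summary of probes (their median) and the area used (no crowded tiles or outermost spots). A tile has 16 by 12 spots and is crowded when at least 4 probes without a gene symbol in it differed 2-fold. The work used Python 3.11.15 (numpy 2.4.6, pandas 2.3.3, matplotlib 3.10.9) and R 4.3.3 (limma 3.58.1).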

Additional observations from a re-analysis of the deposited data

How the results depend on the processing

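Group medians stayed near 0 under all 10 alternatives, from -0.02 to 0.07. The ER median was 0.0651 where a gene took the median of its probes, which changes only Dnajb9 and Pdia6 among the ER genes. With normexp the ER median was -0.02 and the cytosolic median 0.02, each on the other side of 0 from the reported value, and the cause was not tested. The cytosolic median was also above 0, at 0.0043, without the lowest 25% of genes by level. No member was 1.2-fold higher under any alternative. Hspb1 was the 1 member at least 1.2-fold lower. That count was 0 with normexp and 0 without the lowest 25% of genes, where Hspb1 is left out. Of 374 recomputed log2 ratios of members, 17 moved by more than the technical SD, 14 under normexp and 3 where probes were summarised by their median. A sign changed in 12, among them Hspa4, at 0.21 over the median of its probes. Over all settings 30 of the 38 members kept their sign. Signal over background limits Hspa1a, Hspb1, Dnajb4 and Hyou1, which lie in the lowest 25% by level. No paired analysis was possible because there was a single array in each group.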
